A study of Mus musculus with 31 samples.

Results

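Uteri of AF2 mutant mice that had received no estrogen were compared with uteri of wild-type mice of the same line. AF2 is the activation function 2 of estrogen receptor α (ERα, gene Esr1), and, from knowledge outside the labels, the mutant receptor is made but lacks this activity. The comparison takes the 4 arrays labelled AF2 KO PLB and the 4 arrays labelled AF2 WT PLB, 8 of the 31 arrays of the series, with every probe that is not a control. AF2 KO PLB and AF2 WT PLB mice shared the C57BL6/J background, removal of the ovaries at 4 weeks of age, 3 weeks of rest and a subcutaneous injection of castor oil with 0 µg/kg of estradiol (E2), 6 h before the uterus was taken. Further arrays serve only for comparison. They are AF2 KO E2 (3 arrays) and AF2 WT E2 (4 arrays), given 8 µg/kg of E2 in the same oil, MISS KO PLB and MISS WT PLB (4 arrays each), and MISS WT E2 (4 arrays). The MISS line, on C57BL6/N, carries another ERα mutation, one that removes the receptor from the cell membrane.

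ERα is a transcription factor that binds estradiol, settles on estrogen response elements in DNA and recruits coactivators through 2 regions. One of them, activation function 2, lies in the hormone-binding domain and forms its coactivator groove when hormone binds. In the uterus the receptor is present in epithelium, stroma and smooth muscle, where estrogen drives swelling, secretion and growth. Mice without ovaries keep the receptor but have little circulating hormone.

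Levels below are log2 intensities relative to the 75th percentile of their own array, so a level of 0 is that percentile and a difference of 1 is a 2-fold change. Levels are comparable between arrays, not between genes. Genes are called where limma gave them an adjusted p (Benjamini-Hochberg, over the 27061 genes tested) below 0.05, and errors of differences are standard errors (SE) of that model. The 75th percentile was 510.9 to 787.1 intensity units on the 8 arrays, the share of probes well above background was 67.9 to 76.4%, and saturation affected 0 spots. Markers of uterine stroma, smooth muscle and epithelium were detected in both groups, with mean levels per array of 4.29 to 4.50 in KO and 4.03 to 4.27 in WT for 17 stromal genes. The 14 smooth muscle genes averaged 3.81 to 3.89 in KO and 4.00 to 4.23 in WT.

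Esr1, the altered gene, was measured by 4 probes that disagreed. The array annotation places all of them on the minus strand of chromosome 10 (mm9), and 3 match the reference transcript at bases 3983, 1993 and 1225, while the other matches a separate transcript at base 2662. The first 30 of the 60 bases of each probe are shown, in lower case, because the difference depends on which one is read:
probe at 5343056 to 5343115: ttttttgtagacgtttcaaactaccgtgtc
probe at 5345046 to 5345105: tccccgaaaggttctgagaatccctgcaac
probe at 5379218 to 5379277: aagatgctgttcaagaaccacaaatggaaa
probe at 5489352 to 5489411: ttattgaccaacctagcagatagggagctg

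The probe at 5343056, from which the gene is read elsewhere, gave 3.06, 2.88, 2.97 and 2.90 in KO, against 3.43, 3.54, 3.24 and 3.46 in WT. Those groups do not overlap. At 5379218, the probe of the separate transcript read −1.13, −1.18, −1.25 and −1.31 in KO, against 0.62, 0.67, 0.29 and 0.54 in WT, a wider gap without overlap. Over the 40337 probes tested, of which 8.07% were called, the first differed by −0.47 ± 0.12 (adjusted p = 0.0169) and the second by −1.75 ± 0.14 (SE). The probes at 5345046 and 5489352 differed by −0.13 ± 0.23 and 0.21 ± 0.10 (SE) and were not called, with adjusted p of 0.825 and 0.191. Under E2 the probe at 5379218 was also lower in AF2 KO, by −1.28 ± 0.15, while in the MISS line under placebo it differed by −0.00 ± 0.14 (SE). The probe at 5489352, not called under placebo, was called lower in AF2 KO under E2, by −0.47 ± 0.10 (SE). Those at 5343056 (−0.28 ± 0.13) and 5345046 (−0.40 ± 0.25, SE) were not called under E2. The placebo call at 5343056 was lost without AF2 KO PLB array 2 or AF2 WT PLB array 2, which left 1 called Esr1 probe. With arrays scaled on their median that difference was −0.29 and was not called either (adjusted p = 0.168 over genes). The files do not state the altered bases, so these probes check no genotype.

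Under placebo 2448 genes, or 9.05% of those tested, differed between AF2 KO and WT uteri. Of these, 913 were higher in KO (3.37%) and 1535 lower (5.67%), and 209 rose and 756 fell at least 2-fold. The median difference over all genes was −0.05. The first principal component of the 8 arrays held 42.2% of the variance and separated the genotypes, with KO arrays at 31.3 to 51.4 and WT arrays at −54.8 to −9.20.

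Dim genes made up much of the lower side. A gene is called dim here when both group means were under −2. Of the 1535 genes lower in KO, 900 were dim, and of the 913 higher ones, 128. Chemosensory receptors, which the uterus is not known for, had 63 of 367 tested genes called lower and 1 higher. Their median level per array was −4.59, −4.71, −4.76 and −4.76 in KO, against −4.02, −4.46, −4.18 and −4.48 in WT, so the dim end of the scale was itself higher on the WT arrays, most on arrays 1 and 3. Without AF2 WT PLB arrays 1 and 3, a fit chosen after this level was seen, 500 genes were higher and 481 lower. The part of this dim-end difference in the counts was not tested, and the descriptions below rest on genes that are not dim unless stated. Among the 16921 such genes, 785 were higher in KO (4.64%) and 635 lower (3.75%).

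**Figure D1:**
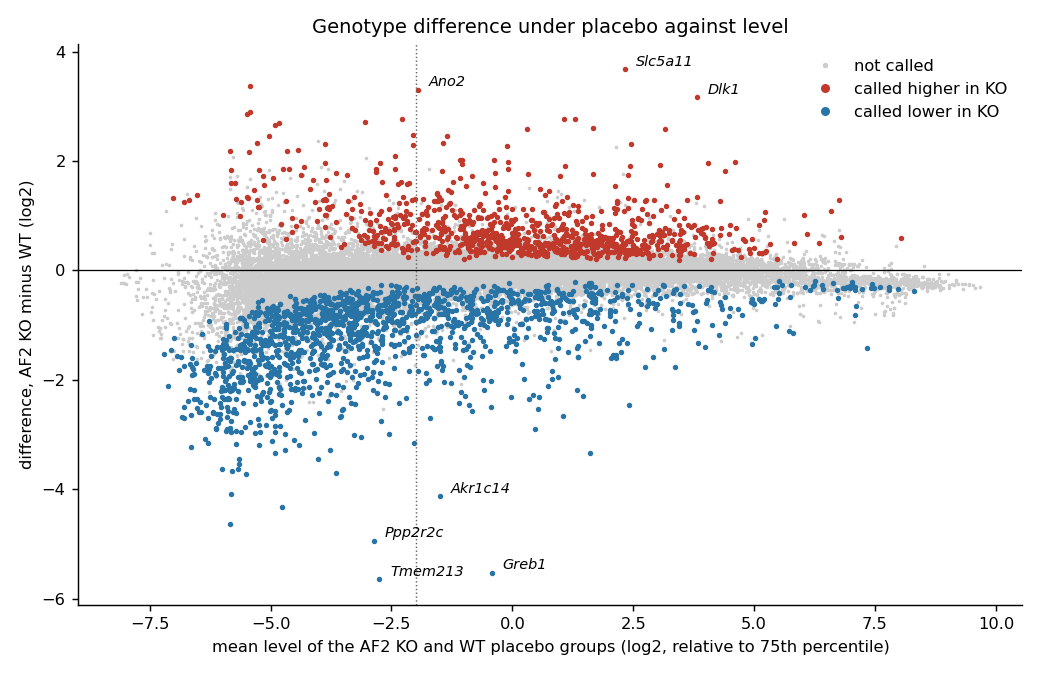
Difference between AF2 KO and WT uteri under placebo (log2, y axis) against the mean level of the 2 groups (log2 relative to the 75th percentile, x axis), one point per gene tested, with called genes in red (higher in KO) and blue (lower in KO). The dotted line marks a level of −2, and 900 of the 1535 blue points belong to genes with both group means under it.

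Tmem213, Greb1, Ppp2r2c and Akr1c14 had the lowest differences among the named genes. Greb1, a cofactor of ERα that estrogen induces in human breast cancer cells, was at −3.28, −3.14, −2.58 and −3.76 in KO, against 3.09, 1.91, 2.32 and 2.04 in WT. Every KO array lay far below every WT array. The difference was −5.53 ± 0.45 (SE), or 46.2-fold (adjusted p = 1.28e-08), at chromosome 12, 16678455 to 16678514 (mm9). Tmem213, a gene of a transmembrane protein, was at −5.55, −5.80, −5.51 and −5.44 in KO, near the bottom of the scale, against 0.57, 0.31, −0.29 and −0.31 in WT. It fell by 5.65 ± 0.28 (SE) on the log2 scale (adjusted p = 2.75e-13), but only 2 of the 4 KO arrays had it well above background, so the size of this difference rests on KO values at the edge of detection. Ppp2r2c, which encodes a regulatory subunit of protein phosphatase 2A, was at −4.91, −5.84, −5.01 and −5.56 in KO, against −0.09, −0.51, −0.66 and −0.29 in WT, with a difference of −4.94 ± 0.24 (SE). A second subunit of that family, Ppp2r2b, was lower by −2.32 ± 0.19 (SE), with means of −0.60 in KO and 1.72 in WT. Akr1c14, a 3α-hydroxysteroid dehydrogenase, was at −3.50, −3.97, −3.69 and −3.09 in KO, against 0.58, 0.89, −0.02 and 0.82 in WT, 17.5-fold lower.

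The next group of falls was mixed in function. Tff2, a trefoil peptide of mucous surfaces, was at −5.01 to −4.23 in KO and −1.77 to −1.37 in WT, 8.27-fold lower. Ltf, the iron-binding milk and uterine protein lactoferrin, was at 0.12, 0.43, 1.29 and −0.57 in KO, against 3.23, 2.43, 2.22 and 2.58 in WT, and its KO arrays varied more than its WT arrays (SD 0.77 and 0.44). Rxfp1, the relaxin receptor, differed by −2.29 ± 0.20 and Spon1, a matrix protein, by −2.22 ± 0.20 (SE). Padi1, which converts arginine in proteins to citrulline, was at −0.70, −0.51, −0.61 and −1.04 in KO, against 1.97, 1.51, 1.54 and 1.25 in WT. The largest falls also included Asb4 (−2.99 ± 0.43), an adaptor of a ubiquitin ligase, Abca17 (−2.07 ± 0.27), Klhl1 (−2.06 ± 0.39) and Ajap1 (−2.01 ± 0.20). Klhl1 was uneven within WT, where array 4 read −2.19 and the others −0.47 to −0.14.

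Slc5a11 and Ano2 had the largest differences among the named rises. Slc5a11, a sodium-coupled inositol transporter, was at 4.26, 4.30, 4.39 and 3.75 in KO, against 0.64, 0.95, 0.62 and −0.20 in WT. The lowest KO array lay far above the highest WT array. Its difference was 3.67 ± 0.50 (SE), or 12.8-fold (adjusted p = 2.28e-05), at chromosome 7, 130416704 to 130416763 (mm9). Ano2, a calcium-activated chloride channel, was at −0.22, −0.80, −0.18 and 0.01 in KO, against −2.26, −4.60, −3.38 and −4.14 in WT, where the arrays were widely spread (SD 1.03). Slc13a5, a citrate transporter, was at 4.45, 4.36, 4.66 and 4.30 in KO, against 2.03, 2.03, 2.49 and 0.85 in WT. Calb1, the calcium-binding protein calbindin, was at 3.16 to 3.83 in KO and −0.12 to 2.12 in WT, 4.96-fold higher.

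Several of the other risers are better known from other tissues. Dlk1, an imprinted membrane protein of fetal and precursor cells, was at 5.86, 5.46, 4.95 and 5.36 in KO, against 2.29, 2.19, 1.96 and 2.53 in WT, with a difference of 3.17 ± 0.84 (SE). Myh6, the α heavy chain of cardiac myosin, was at 2.62, 2.50, 2.29 and 2.41 in KO, against 0.08, −0.07, −0.25 and −0.99 in WT. Ap3b2, part of a vesicle adaptor of neurons, differed by 2.77 ± 0.31, Islr2 by 2.77 ± 0.30, Frmpd1 by 2.70 ± 0.32 and Myoc, the secreted protein myocilin, by 2.59 ± 0.30 (SE). The 15 are completed by Lbhd2, Lrrc15, Pde6h, Ube2ql1 and Magix, at 2.02 to 2.47. In all 30 named leaders the 4 KO arrays and the 4 WT arrays did not overlap, as their selection required. Where one of the 30 had further tested probes, none was called the other way. Of the 30, Dlk1, Lrrc15, Pde6h and Klhl1 lost their call without AF2 WT PLB arrays 1 and 3, with adjusted p of 0.141, 0.0655, 0.0625 and 0.0726.

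**Figure D2:**
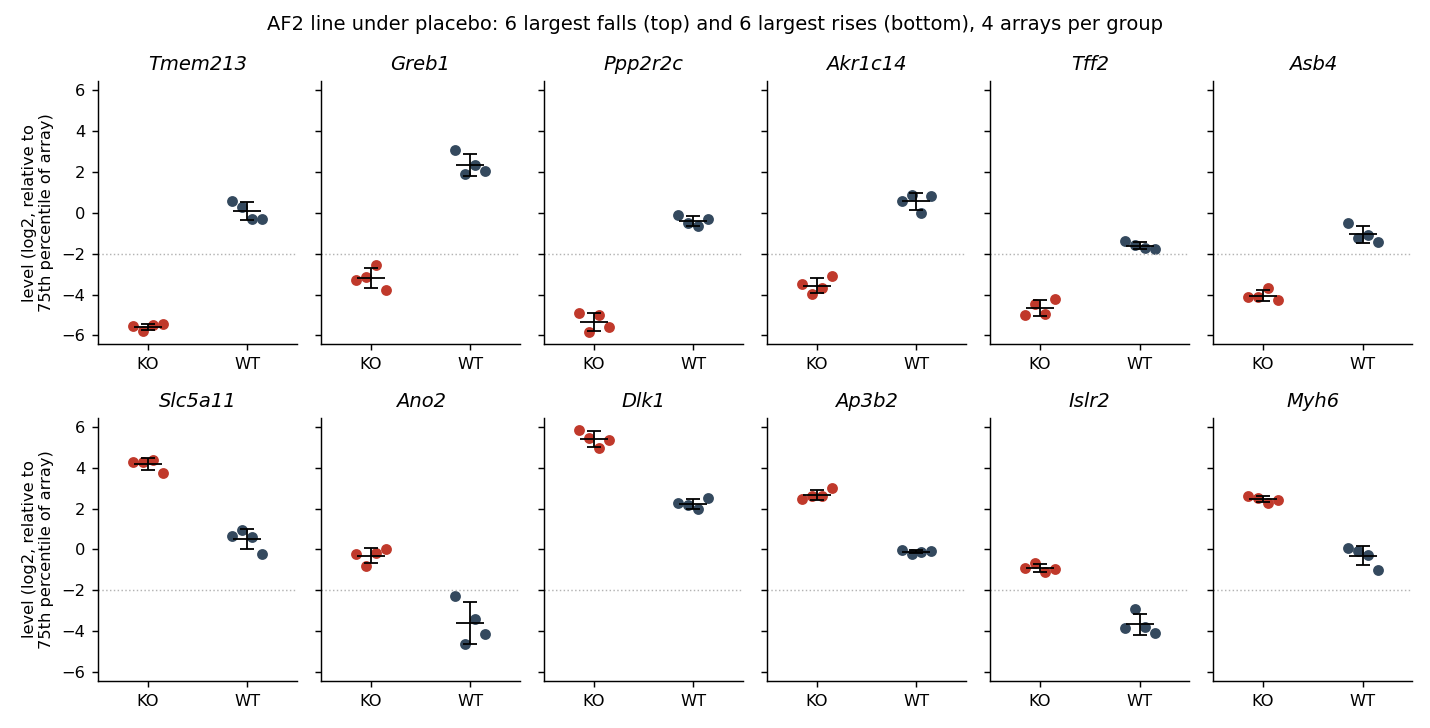
Level of 12 genes on each array (log2 relative to the 75th percentile of the array, y axis), the 6 largest falls in the upper row and the 6 largest rises in the lower row. AF2 KO placebo arrays are red and AF2 WT placebo arrays dark, the bar is the mean ± SD of 4 arrays and the dotted line is −2. In each of the 12 genes the groups are separate, as their selection required. Greb1, for example, was at −3.76 to −2.58 in KO and 1.91 to 3.09 in WT.

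The leading falls were then read in 3 comparisons that share no array with this one. In MISS WT uteri, E2 raised 10 of the 15, lowered 2, Tff2 among them, and left 3 without a call. Of all genes not dim it raised 40.3% and lowered 31.7%. Padi1 gained 5.19 ± 0.22, Ppp2r2c 5.07 ± 0.24, Tmem213 4.69 ± 0.28, Greb1 4.22 ± 0.45 and Spon1 3.28 ± 0.20 (SE) there. Between AF2 KO and WT under E2, 12 of the 15 were lower in KO and 1, Klhl1, was higher. Of all genes not dim 35% were lower in that comparison and 31.3% higher. Greb1 had a mean of −2.34 in AF2 KO E2 and 6.68 in AF2 WT E2, a gap of −9.02 ± 0.48 (SE). In the MISS line under placebo 10 of the 15 were lower in KO as well, against 0.502% of all genes not dim. Among them were Tmem213 by −4.08 ± 0.28, Akr1c14 by −3.39 ± 0.35 and Asb4 by −2.31 ± 0.43 (SE). Greb1 was lower there by −1.81 ± 0.45 with an adjusted p of 0.0502, on the other side of the threshold.

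E2 mostly lowered the leading rises. Of the 15, it lowered 10 in MISS WT uteri and raised 1, Myh6, against 31.7% and 40.3% of all genes not dim. Slc5a11 changed by −4.54 ± 0.50, Magix by −4.08 ± 0.21, Slc13a5 by −3.52 ± 0.45 and Ano2 by −3.02 ± 0.58 (SE). Under E2, 14 of the 15 were higher in AF2 KO than in AF2 WT and 1, Myh6, was lower, by −2.08 ± 0.60 (SE). Of all genes not dim 31.3% were higher in that comparison and 35% lower. Slc5a11 had nearly the same mean in AF2 KO E2 (4.38) as in AF2 KO placebo (4.17), and lower ones in AF2 WT E2 (−1.73) and AF2 WT placebo (0.50). In the MISS line under placebo only Myh6 (3.07 ± 0.55) and Pde6h (2.54 ± 0.51) of the 15 were called, both higher in KO. Of all genes not dim 0.502% were higher there.

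Tested directly, the placebo difference between KO and WT was larger or smaller in the AF2 line than in the MISS line for 601 of all genes (2.22%). Of the 30 leaders 17 were among them, and for each the AF2 difference was the larger. The widest were Slc5a11 with 3.75 ± 0.71, Greb1 with −3.72 ± 0.63 and Ano2 with 3.40 ± 0.83 (SE, AF2 difference minus MISS difference). Unlike the comparisons above, this one reuses the AF2 placebo arrays on which the leaders were chosen for large differences. That choice favoured both the count and the direction among the leaders, so neither is a separate check. Within the AF2 line the genotype difference under E2 departed from that under placebo for 51.9% of all genes. Of the 30 leaders 17 departed, in a comparison that also reuses the AF2 placebo arrays.

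**Figure D3:**
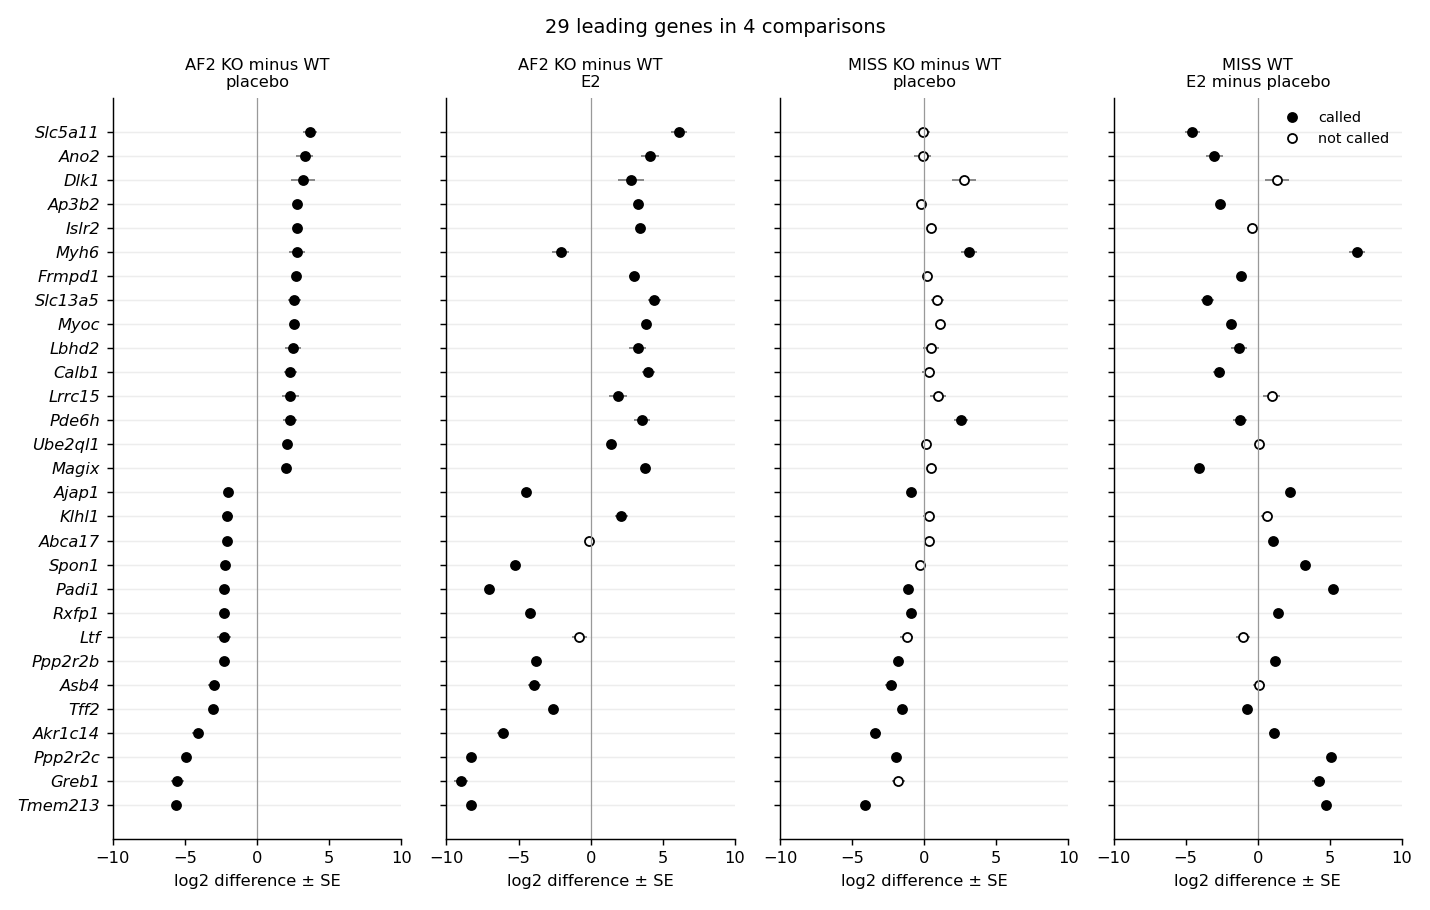
Log2 difference ± SE of 29 leading genes (rows) in 4 comparisons (columns), with filled points for called genes. The first column is the comparison that chose them, and the others share no array with it. In the last column 10 of the 14 genes lower in AF2 KO were raised by E2 in MISS WT uteri, and 10 of the 15 higher ones were lowered. Of all genes not dim 40.3% were raised and 31.7% lowered there.

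The same reading was made over all genes called and not dim. Of the 785 higher in KO under placebo, 420 (53.5%) were lowered and 188 (23.9%) raised by E2 in MISS WT, against 31.7% lowered and 40.3% raised among all 16921. Of the 635 lower, 269 (42.4%) were raised and 159 (25.0%) lowered, which is near the share over all genes on the raised side. Of the 195 that were lower at least 2-fold, 110 (56.4%) were raised and 19 (9.74%) lowered. Under E2, 546 of the 785 (69.6%) were again higher in AF2 KO and 111 lower, where 31.3% of all were higher and 35% lower. Of the 635, 180 (28.3%) were again lower and 270 (42.5%) were higher, the opposite direction. In the MISS line under placebo, 44 of the 785 were higher in KO and 0 lower in limma (236 and 12 at an unadjusted p under 0.05), and 52 of the 635 were lower and 1 higher, against 0.502% higher and 0.502% lower of all.

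The lower genes split by the kind of name they carry. Of the 338 genes with a symbol that were lower and not dim, 139 (41.1%) were again lower under E2 and 115 (34.0%) higher. Among the 297 with only a clone, interval or probe name, 41 (13.8%) were lower and 155 (52.2%) higher. Over all genes not dim the shares under E2 were 35% lower and 31.3% higher. The long intergenic RNA intervals on the array, 3927 in all, had a median level of −2.88 to −2.76 on AF2 KO placebo arrays and −2.76 to −2.51 on AF2 WT placebo arrays. Under E2 they stood at −2.70 to −2.51 in AF2 KO and −2.91 to −2.78 in AF2 WT. The part of these levels in the counts was not tested.

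Lists of genes by function were read next. Lists and members were chosen with earlier results of these data known, and several leading genes are members. Shares of calls in a list are thus descriptions, not tests of the list. They stand beside the shares over all genes of 3.37% higher and 5.67% lower and the median of −0.05. Scaling on the median of each array moved that median to 0.13, and with it the medians of the estrogen-regulated (0.09), steroid enzyme (0.17), transport (0.09), Wnt (0.16), macrophage (0.13) and squamous lists (0.10) turned from below to above 0. Leaving out any 1 array ended 11 to 18 of the calls in the 101 named called genes. Those in Cyp1b1, Oas2, Krt19, Cldn7, Upk3a, Fzd10, 5330421C15Rik, Lrp2, Acod1, Muc4, Dio3, Fxyd3, Itgam, Mcpt4 and Ncr1 ended on omission of 5 or more of the arrays in turn, and those in Esrrb, Mest, Il11, Mx2, Krt10, Msx1, Wif1, Fgfr2, Ier3, Ccl11, Akr1c19 and the interval at 6104054 on omission of 2 to 4. Fitting only the 8 arrays compared ended 20 calls, among them Scnn1a, Atp1b1 and Pgf, which are not listed otherwise. Without AF2 WT PLB arrays 1 and 3, 37 of the 101 named called genes lost their call. Besides those stated elsewhere, they included Esrrb, Gata3, Hsd17b2, Muc4, Wfdc2, Slc26a3, Slc5a3, Fxyd3, Sfrp1, Tgfa, Fgfr2, Mest, Dio3, Oas2, Mx2, Ccl28, Il11, Ier3, Krt19, Cldn7, Krt10, Itgam, Mcpt4, Ncr1, Upk3a, 5330421C15Rik and the interval at 6104054 beside Esr1. Among the named list members Klk1, Esrrb, Hsd17b2, Prol1, Slc26a3, Wif1, Tgfa, Ccl28, Il11, Csf3, Ncr1 and Upk3a were dim in both groups.

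Estrogen-regulated uterine genes were split. Of 31 tested, 8 fell, 2 rose (32.3% called, against 9.05% of all genes) and 21 were not called, with a median of −0.09. Besides Greb1, Ltf and Padi1, the falls were in Padi2 (−1.13 ± 0.20), Lcn2, the siderophore-binding lipocalin (−1.58 ± 0.39), Inhbb, an inhibin and activin subunit (−1.25 ± 0.31), Klk1, a kallikrein protease (−2.23 ± 0.17), and Ramp3, a receptor activity-modifying protein (−1.98 ± 0.31). Ramp3 was at −0.74, −0.74, −0.63 and −0.92 in KO, against 1.79, 0.98, 1.22 and 0.88 in WT. Ccnd1, cyclin D1, rose by 0.66 ± 0.15 and Cyp1b1, an estrogen-oxidising enzyme, by 1.18 ± 0.36 (SE). A pair of well-known targets was not called: Pgr, the progesterone receptor, differed by 0.23 ± 0.11 (adjusted p = 0.222) and Igf1 by 0.14 ± 0.13 (adjusted p = 0.577). Both are strongly raised by E2 in MISS WT, Pgr by 2.46 ± 0.11 and Igf1 by 3.47 ± 0.13 (SE). With arrays scaled on their median Pgr was called higher in AF2 KO under placebo (0.41, adjusted p = 0.0185 in limma). Calls in Lcn2, Inhbb and Ccnd1 were lost without AF2 WT PLB arrays 1 and 3, and that in Cyp1b1 on omission of any of 7 of the 8 arrays (adjusted p = 0.0544 to 0.107). In the MISS line under placebo the median of this list was −0.38. There 3 of the 31 were lower in KO and 1 higher, against 0.502% each way of all genes not dim.

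Of 23 steroid receptors and cofactors 1 was higher and 4 were lower, 21.7% against 9.05% of all genes, in both directions and with a median of 0.01. Foxa2, given with the glands, and Esr1 were among the lower ones. Gata3 differed by −0.65 ± 0.15, and Esrrb rose by 0.93 ± 0.26 (SE). Esr2, the gene of ERβ, differed by −0.22 ± 0.09 (SE, adjusted p = 0.143), and no coactivator of the Ncoa family was called. Among 28 steroid-metabolising enzymes 3 were lower and 2 higher (17.9% called). Hsd17b2, which oxidises estradiol to estrone, was lower by −1.59 ± 0.34 at a dim level (−5.62 in KO, −4.03 in WT), and Akr1c19 by −0.60 ± 0.16 (SE). Cyp26a1, the retinoic acid hydroxylase, was at 0.14, 0.51, −0.19 and −0.59 in KO, against −2.21, −1.66, −2.13 and −2.20 in WT, 4.04-fold higher.

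Of 19 progesterone-regulated genes 5 rose, where 3.37% of all genes did, and 0 fell in limma. At an unadjusted p under 0.05 in limma 7 were higher and 2 lower, and the median was 0.30. The 5 were Cyp26a1, Il13ra2, a decoy receptor of interleukin 13 (1.47 ± 0.23), Lrp2, the endocytic receptor megalin (1.92 ± 0.57), Acod1, which makes itaconate (2.02 ± 0.61), and Msx1, a homeobox factor (0.61 ± 0.16). Lrp2 and Acod1 were uneven in WT, with ranges of 0.21 to 2.71 and −4.11 to −0.76. In a fit of only the 8 arrays compared, Lrp2 (adjusted p = 0.105), Msx1 (0.0834) and Acod1 (0.155) lost their call, which left Cyp26a1 and Il13ra2. Hand2, Hoxa10 and Ihh, core members of the list, were not called. The median within single slides ran from 0.06 to 0.53.

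Secreted defence proteins and mucins went the other way, with 5 of 20 lower (5.67% of all genes were), 1 higher and a median of −0.42. Muc20 differed by −1.43 ± 0.25 and Muc4, an epithelial mucin, by −1.16 ± 0.34 (SE). Prol1, a secreted proline-rich protein, was at −7.86, −7.90, −8.44 and −8.45 in KO, well above background on none of the 4 arrays, against −3.51, −4.03, −3.50 and −3.06 in WT. It was at least 6.41-fold lower in KO, reckoned against the dimmest signal that is well above background on each KO array, as for every "at least" here. Wfdc2, a protease inhibitor of epithelia, rose by 0.60 ± 0.15, with 7.09 ± 0.18 in KO and 6.49 ± 0.12 in WT (SD, n = 4 each). In the MISS line under placebo the median of this list was −0.61, with 0 genes called.

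Transport genes were called mostly upwards, with 7 of 26 higher (3.37% of all genes were) and 1 lower, while their median was −0.09. The risers were Slc5a11, Ano2, Slc5a3, a second inositol transporter (0.81 ± 0.17), Aqp11, an aquaporin (0.98 ± 0.15), Scnn1a, a subunit of the epithelial sodium channel (0.84 ± 0.19), Atp1b1, a subunit of the sodium pump (0.71 ± 0.16), and Fxyd3 (0.32 ± 0.10). Slc26a3, a chloride and bicarbonate exchanger, was at least 4.37-fold lower, at −5.89 in KO and −3.73 in WT, and was well above background on none of the 4 KO arrays. It is dim in both groups.

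Wnt pathway genes and growth factors were called mostly upwards. Of 27 Wnt genes 4 rose and 2 fell (22.2% called, against 9.05% of all genes), with a median of −0.02. Lgr5, a receptor of R-spondins, was at 2.35, 2.46, 2.38 and 2.33 in KO, against 1.37, 1.31, 1.42 and 1.04 in WT. Wnt11 rose by 1.07 ± 0.22, Sfrp1, a secreted Wnt inhibitor, by 1.35 ± 0.31 and Lef1 by 0.50 ± 0.11, and Fzd10 fell by 0.56 ± 0.17 (SE); the other fall, in Wif1, is given with the glands. Of 29 growth factors and receptors 6 rose and 0 fell in limma (8 and 0 at an unadjusted p under 0.05). Their median was 0.18, and 3.37% of all genes rose. Fgf18 rose by 1.24 ± 0.21, Igfbp2 by 1.31 ± 0.25 and Pgf, placental growth factor, by 0.68 ± 0.16 (SE), while Tgfa and Fgfr2 rose by 0.45 and 0.54. In MISS WT, E2 lowered Lgr5, Wnt11 (−1.64), Sfrp1 (−1.37), Fgf18 (−1.86) and Fgfr2 (−0.80), and raised Pgf (5.26).

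Imprinted growth genes had the largest share of calls among the lists of function, 6 of 14 (42.9%, against 9.05% of all genes). Dlk1, already among the leading rises, is 1 of the 6. H19, a noncoding RNA, was at 5.89, 5.54, 5.45 and 5.49 in KO, against 3.61, 3.16, 4.12 and 3.57 in WT, a difference of 1.98 ± 0.36 (SE), and 6 of its 7 tested probes were called in this direction. Its neighbour in the imprinted cluster, Igf2, rose by 1.12 ± 0.18. Meg3, from the cluster of Dlk1, rose by 1.07 ± 0.19 and Mest by 0.60 ± 0.18, and Dio3, from the Dlk1 cluster too, fell by 0.73 ± 0.21 (SE). Cdkn1c, Grb10 and Igf2r were not called. In the MISS line under placebo H19 (2.39 ± 0.36) and Meg3 (0.79 ± 0.19) were also higher in KO, and Dlk1 differed by 2.76 ± 0.84 (SE, adjusted p = 0.128).

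Interferon-response genes lay lower in KO as a list. All 21 had negative differences, the median was −0.55, and in 13 the KO arrays lay below the WT arrays without overlap, where 8.7% of all genes did. The fit called 3 of the 21 lower, where 5.67% of all genes were, and 0 higher. At an unadjusted p under 0.05 in limma 8 were lower and 0 higher. Bst2, tetherin, which holds budding viruses at the cell surface, was at 2.77, 2.77, 2.78 and 2.75 in KO, against 3.96, 3.71, 3.74 and 4.00 in WT. Oas2, an RNA-sensing synthetase, differed by −1.18 ± 0.36 and Mx2 by −0.75 ± 0.20 (SE). In the MISS line under placebo the median of the list was −0.58 with 1 gene called lower, where 0.502% of all genes not dim were. Under E2 the AF2 list ran the other way, with a median of 0.71 and 11 genes called higher in KO and 3 lower. Of all genes not dim 31.3% were higher in that comparison and 35% lower. Cytokines and chemokines had 4 of 28 lower and 0 higher in limma (8 and 1 at an unadjusted p under 0.05). The called share was 14.3%, against 9.05% of all genes. Their median was −0.40, and −0.76 in the MISS line under placebo, where 1 was called lower and 0 higher. Csf3, the granulocyte growth factor G-CSF, was at −4.52, −5.07, −4.46 and −3.81 in KO, against −1.80, −2.14, −2.19 and −1.97 in WT, and Ccl11, eotaxin, differed by −0.92 ± 0.24 (SE). Ccl28 was dim in both groups, at −6.35 in KO and −3.07 in WT.

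Of 20 cell division genes only Ccnd1 was called, Mki67, Top2a and Mcm2 to Mcm7 were not, and the median was 0.05. Among 17 immediate early genes Myc (−0.55 ± 0.10) and Ier3 (−0.60 ± 0.15) were lower, and the list median was 0.15 over all arrays and −0.56 to 0.68 within single slides.

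Cell type markers moved as follows, where 3.37% of all genes were higher and 5.67% lower. Epithelial genes had 7 of 21 higher, 0 lower in limma (17 and 0 at an unadjusted p under 0.05) and a median of 0.47. Krt8, a keratin of simple epithelia, was at 4.76, 4.64, 4.74 and 4.65 in KO, against 3.89, 3.92, 3.84 and 4.03 in WT. Cdh1, E-cadherin, rose by 0.52 ± 0.11, Esrp1, an epithelial splicing regulator, by 0.54 ± 0.08 and the junction protein gene Tjp3 by 0.72 ± 0.15 (SE). Their mean level per array was 2.48 to 2.62 in KO and 1.97 to 2.22 in WT. In the MISS line under placebo the epithelial median was −0.01, with 0 genes called. In bulk RNA, more epithelial cells and more RNA per epithelial cell cannot be told apart. Glandular markers went the other way, with a median of −0.58 and a mean of −3.93 to −3.46 in KO and −2.91 to −2.10 in WT. These means lie in the dim range, where the WT arrays were themselves higher. The part of that dim-end difference in this list was not tested. Of the 8 glandular genes Foxa2, a transcription factor of uterine glands, fell by 1.75 ± 0.44 and Wif1, a Wnt inhibitor dim in both groups, by 3.19 ± 0.85 (SE), and 6 were not called. Both glandular calls were lost without AF2 WT PLB arrays 1 and 3.

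Smooth muscle genes had 1 of 14 lower, the oxytocin receptor gene Oxtr (−1.38 ± 0.24), and a median of −0.21, stromal genes 0 of 17 called with a median of 0.09, and endothelial genes 0 of 15 with −0.20. At an unadjusted p under 0.05 in limma, 6 stromal genes were higher and 1 lower, and 0 endothelial genes were higher and 5 lower. Fat markers differed most in median, 1.24, with 0 of 11 called in limma and 0 at an unadjusted p under 0.05, and the arrays varied widely within both groups. Their mean level was 0.76, 1.93, 0.14 and 2.34 in KO, against −0.85, 1.01, −0.88 and 1.33 in WT. Array by array these 2 series are on slides 1 to 4, and on each slide the KO array was the higher one, with list medians of 1.77, 1.03, 1.23 and 0.97 within slides. With slide as a block 0 of the 11 were called. Macrophage, lymphocyte and mast cell lists had 1 called gene each (Itgam and Ncr1 lower, Mcpt4 higher), and granulocyte, nerve, mesothelium, ovary and oviduct, skeletal muscle and blood lists had 0 in limma. At an unadjusted p under 0.05 only 2 nerve genes (higher) and 1 ovary and oviduct gene (lower) of those 6 lists passed. Bladder markers were split between Upk1a (−1.24 ± 0.26) and Upk3a (1.03 ± 0.32). The squamous list had Krt10 higher, by 0.36 ± 0.10 (SE). Nnt, which differs between C57BL/6 substrains, was not called (0.14 ± 0.09). With arrays scaled on their median it was called higher in KO (0.32, adjusted p = 0.0351 in limma). The part of these cell types in the gene differences above was not tested.

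**Figure D4:**
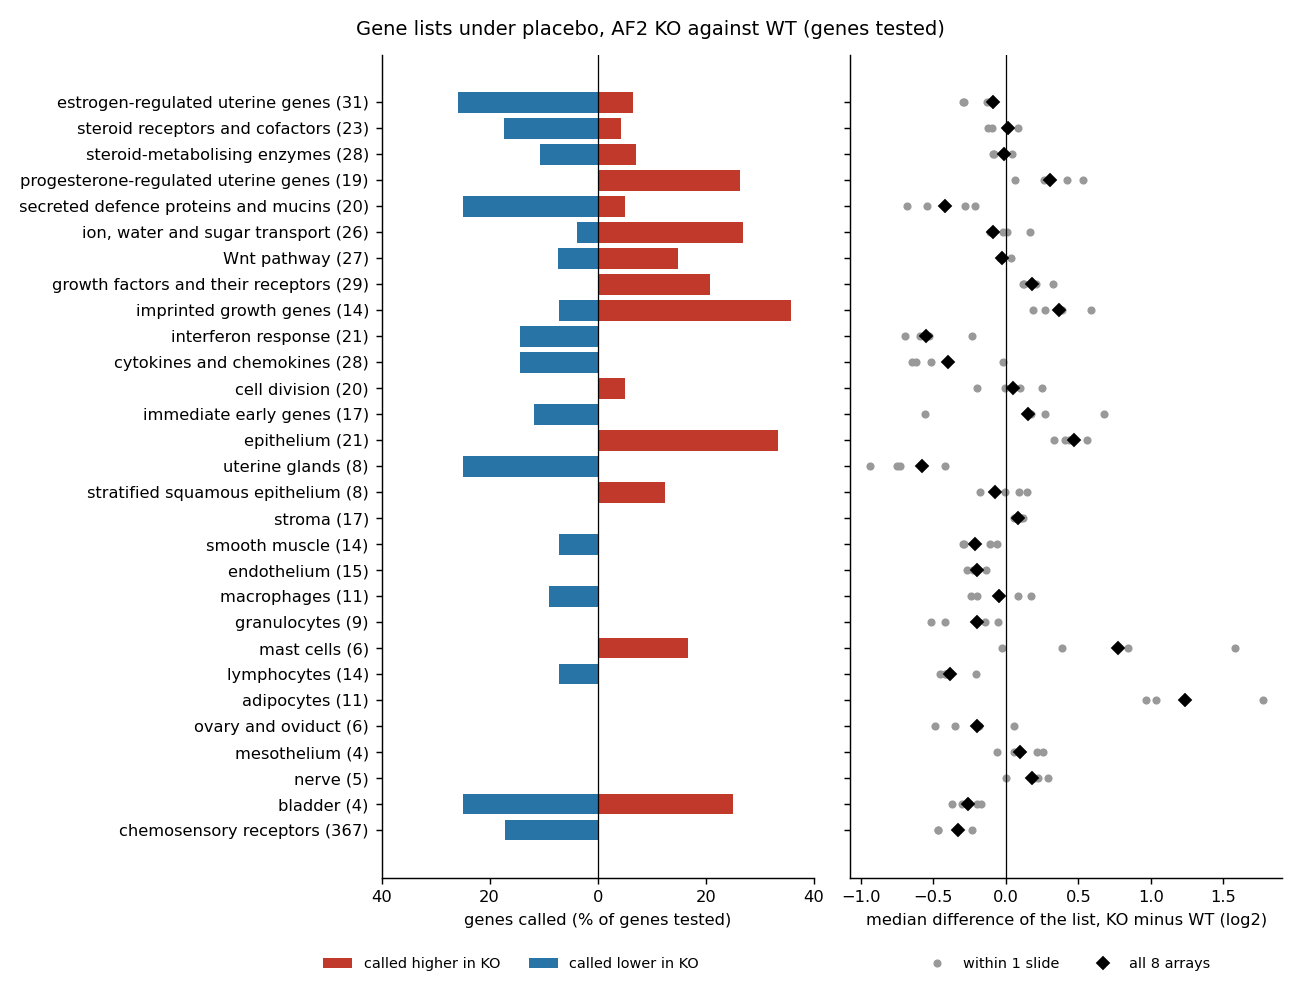
For each gene list (number of genes tested in brackets), the share of genes called higher (red) or lower (blue) in AF2 KO than in WT under placebo, as a percentage of genes tested (left), and the median log2 difference over all 8 arrays (black) and within single slides (grey, right). Epithelial genes lie to the right on all 4 slides and glandular and interferon genes to the left, while fat markers have the highest median, 1.24.

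Genes around Esr1 on chromosome 10 were called more often than genes at large. Of 86 genes within 10 Mb of an Esr1 probe, 19 (22.1%) were called, 9 higher and 10 lower, against 9.05% of all. Without dim genes the share was 10 of 58 (17.2%), against 8.39%. The 5 called genes nearest to Esr1 were 5330421C15Rik (0.51 ± 0.15), a transcript listed as ENSMUST00000073478 (2.65 ± 0.49), 1700052N19Rik, and 2 intergenic intervals at 6094233 to 6094292 and 6104054 to 6104113 (−2.90 ± 0.43 and −0.40 ± 0.11, SE). 1700052N19Rik, at 5906780 to 5906839, was at −0.38, −0.15, −0.30 and −0.21 in KO, against −2.45, −2.68, −2.70 and −2.55 in WT. The groups lay far apart and varied little within themselves, with SDs of 0.10 in KO and 0.12 in WT. Its difference was 2.34 ± 0.09 under placebo and 2.23 ± 0.10 under E2, and 0.03 ± 0.09 in the MISS line (SE). ENSMUST00000073478 was well above background on 4 of 4 KO arrays but 1 of 4 WT arrays, so the size of its difference rests on WT values at the edge of detection. Of the 19, 8 were called in the same direction under E2 and 1 was called in the MISS line.

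**Figure D5:**
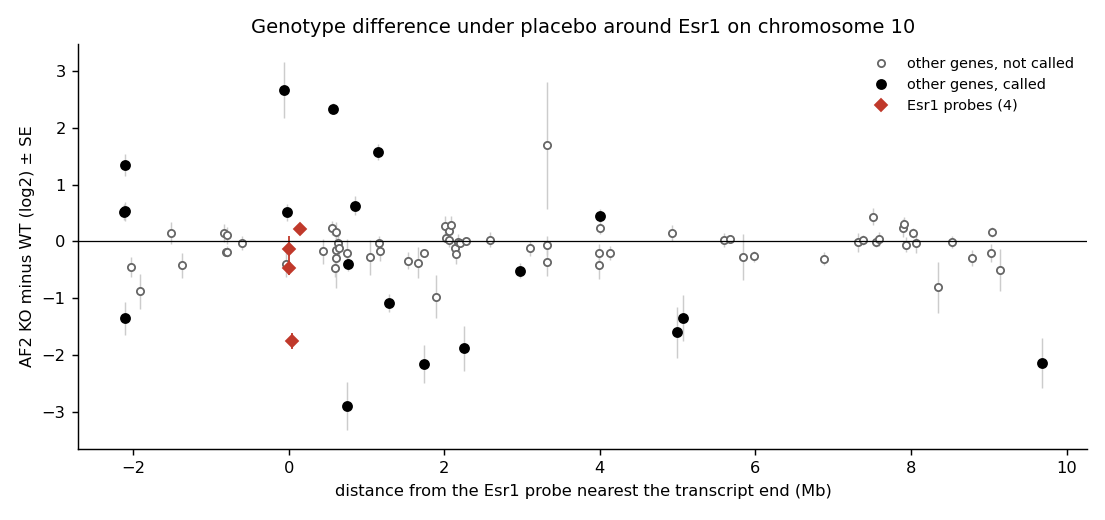
Log2 difference ± SE between AF2 KO and WT under placebo (y axis) of each gene tested within 10 Mb of Esr1, by distance on chromosome 10 (Mb, x axis). Filled points were called, open points were not and red diamonds are the 4 Esr1 probes. Called genes lie above and below 0, with 1700052N19Rik at 2.34 and the Esr1 probe of the separate transcript at −1.75.

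Promoters of the leading genes were searched for estrogen response elements. The full palindrome GGTCANNNTGACC was in 0 of 24 leading genes with a promoter sequence in RefSeq (GRCm38.p6), and in 0.0740% of all 27025. One arm of it, GGTCA, or TGACC on the other strand, was in 8 of the 24 (33.3%), against 43.6% of all, in windows from 250 bases before to 50 after each start. A full palindrome also holds such an arm. The 8 were Greb1, Ltf and Ppp2r2c among the falls and Ano2, Ap3b2, Magix, Slc13a5 and Slc5a11 among the rises. One of the 2 promoters of Greb1 is shown, as the large fall with the best known link to estrogen, 250 bases before the start at chr12:16800887-16801136 on the minus strand, with the arm TGACC in capitals:
Greb1: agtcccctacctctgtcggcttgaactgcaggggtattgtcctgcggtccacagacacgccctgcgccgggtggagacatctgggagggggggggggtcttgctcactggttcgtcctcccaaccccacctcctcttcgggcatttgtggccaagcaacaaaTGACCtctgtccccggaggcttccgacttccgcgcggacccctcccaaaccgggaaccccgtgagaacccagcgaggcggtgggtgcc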

How the data were processed

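RNA of mouse uterus was hybridised by the authors to 1-colour (Cy3) Agilent arrays and read out with Feature Extraction 10.10.1.1, a version given in the submitters' processing notes. Per the file headers, the processed signal is a background-subtracted intensity per spot, not scaled between arrays. The authors' matrix, with log2 values for 43753 probes, is a deposited file too and served as an alternative.

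Outlier-marked spots were set missing, replicate spots of a probe were averaged as log2 values, and each array's 75th percentile was subtracted. A probe was tested (40337 in all) if some group had it well above background on all its arrays, and each gene was read from its probe with the highest mean level. Of 55681 probes 27229 were named through their accession in RefSeq (GRCm38.p6), which changed 2837 names. Positions are those of the array annotation (mm9). limma 3.58.1 in R 4.3.3 fitted 8 group means over 31 arrays, with 23 residual degrees of freedom, and 22 values of the 8 arrays were missing. The fit was checked on simulated data.

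The named genes were the 15 largest rises and 15 largest falls among called genes that have a gene symbol, do not overlap between groups and have a mean of −2 or more in the brighter group. Called members of the gene lists, all Esr1 probes and the 5 called genes nearest Esr1 were named too (2 of these genes are not reported here), and Pgr, Igf1 and Nnt for context. Members and lists were chosen with earlier results of these data known. Nothing states that arrays are separate animals, so p-values measure the spread between samples, and the number of arrays limits the precision. Alternatives were slide as a block, values within slides, other scalings, background corrections and filters, other probe rules, the 8 arrays alone, the authors' log2 matrix and the omission of each array.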

Additional observations from a re-analysis of the deposited data

Results flagged for a closer look

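6 of 210 groups of 4 arrays checked held 1 array far from the others, where chance gives about 1 in 20. The gap to the nearest array, as a share of the group's range, was 0.839 in Klhl1 (WT, array at −2.19), 0.93 in Klk1 (KO, −4.47), 0.855 in Cyp26a1 (WT, −1.66), 0.936 in Aqp11 (WT, −1.15), 0.845 in Cdh1 (WT, 1.44) and 0.839 in the interval at 6094233 near Esr1 (KO, −6.33).

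The AF2 and MISS lines also differ in substrain, which cannot be told apart from the mutation. Between these lines the placebo difference between KO and WT departed in 17 of the 30 leading genes, against 2.22% of all genes. The 30 were chosen on the AF2 placebo arrays that this comparison reuses, which favoured their share and direction. All 17 passed limma's adjusted threshold, and 16 of them are listed. As AF2 minus MISS on the log2 scale (± SE), the rises among them were Slc5a11 3.75 ± 0.71, Ano2 3.40 ± 0.83, Ap3b2 3.01 ± 0.44, Islr2 2.29 ± 0.42, Frmpd1 2.50 ± 0.45, Ube2ql1 1.96 ± 0.31 and Magix 1.57 ± 0.29. The falls were Tmem213 −1.56 ± 0.39, Greb1 −3.72 ± 0.63, Ppp2r2c −3.00 ± 0.34, Tff2 −1.48 ± 0.29, Rxfp1 −1.34 ± 0.28, Spon1 −1.95 ± 0.28, Abca17 −2.39 ± 0.38, Klhl1 −2.36 ± 0.55 and Ajap1 −1.07 ± 0.28.

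Within the AF2 line the difference departed between E2 and placebo in 17 of the 30 as well, which is near the 51.9% of all genes that did. As E2 minus placebo (± SE), Slc5a11 2.43 ± 0.74, Slc13a5 1.83 ± 0.66, Myoc 1.28 ± 0.45, Calb1 1.70 ± 0.65, Magix 1.72 ± 0.30, Abca17 1.96 ± 0.40 and Klhl1 4.19 ± 0.57 were positive, and Myh6 −4.84 ± 0.82, Tmem213 −2.66 ± 0.41, Greb1 −3.49 ± 0.66, Ppp2r2c −3.38 ± 0.35, Akr1c14 −1.96 ± 0.52, Ppp2r2b −1.50 ± 0.28, Rxfp1 −1.91 ± 0.29, Padi1 −4.76 ± 0.33, Spon1 −3.06 ± 0.30 and Ajap1 −2.45 ± 0.29 negative. Klhl1 was lower in KO under placebo and higher under E2, and Myh6 the reverse. These comparisons share the placebo arrays with the report's own.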

How the results depend on the processing

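Of the 30 leading genes all kept their direction under every alternative run, and 624 of 628 values kept their call, the exceptions being Dlk1, Lrrc15, Pde6h and Klhl1 without AF2 WT PLB arrays 1 and 3. The other 71 named called genes kept their direction too, and 205 of 1470 values, in 44 genes, lost the call. With slide as a block 1808 genes were higher in KO and 3639 lower, against 913 and 1535, and 839 differed in the MISS line under placebo, against 230, and 2804 between the lines, against 601. Scaling on the array median gave 3565 higher and 1068 lower (76.9% of calls higher, against 51.9% with quantile normalization and 50.8% with the authors' matrix). Background correction by normexp gave 1086 higher and 2866 lower (27.5% higher). Testing only genes that are not dim gave 667 lower. Leaving out 1 array gave 649 to 879 higher and 930 to 1904 lower, with 751 and 1006 without WT array 1 and 649 and 930 without WT array 3. Without both, a choice made after seeing the data, 500 were higher and 481 lower (51.0% higher). Called Esr1 probes numbered 1 to 2 with 1 array left out. Esr1 probe A_51_P474658 (at 5345046) turned to 0.0531 with array median scaling, and Igf1 (−0.0033) and Nnt (−0.0824) turned as means of their probes, none of them called, and the cause was not tested. Replicate numbers are only the order of deposition and pair no mice, but each slide holds 1 KO and 1 WT array, so the fit with slide as a block (1808 and 3639) is the paired one, by slide. Fitting only the 8 arrays compared gave 609 higher and 1179 lower, and 20 named genes lost their call. Dim genes are limited by signal over background.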

Other observations

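Some features were lower in AF2 KO under placebo and higher under E2, chosen here after their values were seen. Ciita, the regulator of MHC class II genes, was at −1.63, −2.14, −2.23 and −2.04 in KO, against −0.37, −0.43, 0.14 and −0.12 in WT, and differed by −1.81 ± 0.29 under placebo and 1.80 ± 0.34 under E2 (SE). Slfn9, of the Schlafen family, differed by −1.77 ± 0.32 and 1.18 ± 0.34 (SE). The same turn was seen in unnamed probes on chromosomes 14 and 8, with −2.66 and −2.46 under placebo and 1.95 and 1.97 under E2. Among genes not dim and at least 2-fold lower, 22 of 94 with a gene symbol were higher in KO under E2 and 52 lower, against 70 and 6 of 101 with other names. Over all genes not dim the shares under E2 were 31.3% higher and 35% lower. The chemosensory receptors had a median level of −4.40 to −3.90 in AF2 KO E2 and −4.75 to −4.37 in AF2 WT E2.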
